A study of Mus musculus with 24 samples.

Results

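Liver RNA of newborn mice given only the corn oil vehicle was compared between mice carrying a human CAR knock-in (hCAR-TG) and wild type mice, both on the C57BL/6 strain and both at postnatal day 5. The comparison holds 6 of the 24 libraries of the series, 3 of each genotype, chosen by their titles. Polyadenylated RNA was sequenced from stranded libraries, and the values are FPKM, fragment counts scaled by transcript length and by the library's mapped fragments. Of 24339 genes, 12282 reached 1 FPKM in at least 3 of the 24 libraries and were tested. The comparison describes how the mouse lines differ before any ligand is given. An effect of the human receptor gene cannot be told apart from other differences between the lines or their libraries. Groups set beside it are the same genotypes under corn oil at day 60 (3 libraries each), and at day 5 hCAR-TG mice given CITCO, an agonist of human CAR, and wild type mice given TCPOBOP, an agonist of mouse CAR (3 libraries each). The labels give no sex, litter or dose for these groups. They do not say how the human gene was inserted or whether replicates are separate animals, so p-values measure only the spread between libraries. The model shares that spread across all 24 libraries.

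CAR, the constitutive androstane receptor encoded by Nr1i3, is a nuclear receptor of hepatocytes. On activation it enters the nucleus, pairs with RXRα and raises transcription of drug-metabolising enzymes, with Cyp2b10 as its usual readout in mouse liver. The newborn mouse liver is also still a blood-forming organ: erythroblasts, granulocyte precursors and megakaryocytes lie among the hepatocytes and leave during the following weeks. Liver RNA of this age therefore carries transcripts of both hepatocytes and blood precursors. In whole liver RNA, fewer cells of a type and less RNA per cell cannot be told apart.

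The 6 libraries had similar FPKM totals (460737 to 502499) and similar relative depth (0.864 to 1.072, from the widths of the deposited FPKM intervals). Absolute depth is unknown. The defining hepatocyte marker Alb was at 49994, 51186 and 49582 FPKM in wild type replicates 1 to 3 and 46639, 47852 and 46036 FPKM in hCAR-TG replicates 1 to 3. Library hCAR-TG replicate 3 stood apart: the standard deviation of its log2 deviations from the group mean was 0.257, against 0.0967 to 0.178 in the other 23 libraries. The Y-linked gene Ddx3y was at 10.7, 10.9 and 3.28 FPKM in the hCAR-TG replicates, with replicate 3 the low one. In the TCPOBOP-treated wild type newborns Ddx3y was at 7.595, 4.889 and 7.555 FPKM. The sex-linked RNA Xist reached at most 0.0107 FPKM in wild type and 0.00413 FPKM in hCAR-TG under corn oil at day 5. The sex of the samples was not tested. Within hCAR-TG, replicate 3 was also highest in the goblet cell gene Spink4 (1.54, 3.94 and 21.7 FPKM) and the smooth muscle gene Actg2 (1.63, 2.43 and 15.0 FPKM). In wild type Spink4 was at 0.320, 3.49 and 0.211 FPKM and Actg2 at 2.02, 5.82 and 1.22 FPKM, with replicate 2 the highest. Wild type replicate 2 carried exocrine pancreas transcripts, with the chymotrypsinogen gene Ctrb1 at 12.1, 103 and 1.88 FPKM in wild type and 10.7, 0.719 and 1.11 FPKM in hCAR-TG. Wild type replicate 1 carried adrenal and adipose transcripts. The adrenal gene Cyp11a1 was at 5.66, 0.170 and 0.147 FPKM in wild type and 0.206, 0.0873 and 0.191 FPKM in hCAR-TG. The adipose gene Ucp1 was at 2.50, 0.0185 and 0.0160 FPKM in wild type and 0.0172, 0.0317 and 0.0149 FPKM in hCAR-TG. The read files of the wild type libraries all end in 3, those of the hCAR-TG libraries in 4, 4 and 5. The meaning of that number is not stated, and it cannot be told apart from genotype.

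Under corn oil at day 5, limma called 1297 genes (10.6% of those tested, adjusted p under 0.05), of which 1018 (8.29%) were higher in hCAR-TG and 279 (2.27%) lower. At least 2-fold differences numbered 130 (1.06%), with 109 rises (0.887%) and 21 falls (0.171%). The 3 libraries of one genotype lay wholly above those of the other for 21.7% of genes (16.3% hCAR-TG higher, 5.33% lower). The median log2 difference over all tested genes was 0.03. Without hCAR-TG replicate 3, 1745 genes (14.2%) were called (11.1% higher, 3.13% lower), and 996 genes were called in the same direction in both fits. Without wild type replicate 1, or without wild type replicate 2, the count was 801 in each case. A fit of the 6 libraries alone, in place of the spread shared by all 24, called 191 genes, 157 higher and 34 lower. Counts over gene lists are given below beside these shares of all genes, and the range of a list's count means the range with any 1 of the 6 libraries left out. After rescaling by median of ratios, 63.6% of calls were rises, against 78.5% as reported. Values below are FPKM in replicates 1, 2 and 3, and differences are hCAR-TG minus wild type on the log2(FPKM + 1) scale, given ± standard error, so that changes of genes near 1 FPKM are understated.

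The mouse Nr1i3 gene itself, at chr1:171213969-171218845 (mm10), was at 68.6, 61.6 and 43.8 FPKM in wild type and 18.7, 20.4 and 27.7 FPKM in hCAR-TG newborns. All 3 hCAR-TG libraries lay below all 3 wild type libraries, a log2 difference of -1.34 ± 0.18, limma adjusted p = 4.4e-05. The level counted at Nr1i3 was thus reduced but above 0 in the knock-in newborns. Whether reads of the human gene were counted here is not known, so neither is the amount of mouse Nr1i3 RNA that remained. In a comparison that also differs in ligand, CITCO-treated hCAR-TG against TCPOBOP-treated wild type newborns, Nr1i3 was higher in hCAR-TG (0.99 ± 0.18, limma adjusted p = 0.000232). At day 60 the same genotype difference was -2.83 ± 0.18, limma adjusted p = 4e-09, with hCAR-TG at 6.94, 9.23 and 9.93 FPKM, and the difference between the ages was -1.49 ± 0.26, limma adjusted p = 0.00108. Nr1i2, which encodes the related xenobiotic receptor PXR, was at 21.9, 17.3 and 21.6 FPKM in wild type and 18.2, 17.4 and 25.8 FPKM in hCAR-TG, with overlapping groups (-0.00 ± 0.11, limma adjusted p = 0.996).

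Cyp2b10 was low in both genotypes: 3.30, 5.57 and 3.92 FPKM in wild type and 5.22, 1.22 and 1.98 FPKM in hCAR-TG. The groups overlapped and no difference was called (-0.58 ± 0.26, limma adjusted p = 0.169). Without hCAR-TG replicate 1, its only high library, the difference was -1.01 (limma adjusted p = 0.00138). At day 60 Cyp2b10 was at 9.31, 11.9 and 17.4 FPKM in wild type and 241, 208 and 227 FPKM in hCAR-TG. The adult hCAR-TG libraries were thus far above adult wild type, and the difference between the ages was 4.65 ± 0.36, limma adjusted p = 2.01e-07.

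Among 44 tested CAR targets known from adult liver, 6 were lower (against 2.27% of all genes) and 3 higher (against 8.29%) in hCAR-TG newborns, while the median log2 difference of the list was above 0 (0.09). Cyp2c29, a CAR-inducible P450, was at 40.1, 39.1 and 10.4 FPKM in wild type and 6.19, 2.13 and 8.28 FPKM in hCAR-TG. Wild type replicate 3 was the low one of its group, only just above the highest hCAR-TG library, and the difference was -2.16 ± 0.39, limma adjusted p = 0.00118. Its relatives Cyp2c50 (-1.58 ± 0.41, limma adjusted p = 0.0172), Cyp2c37 (-1.10 ± 0.30, limma adjusted p = 0.0249) and Cyp2c54 (-1.29 ± 0.38, limma adjusted p = 0.0356) fell with it. Cyp2c50 was at 62.7, 64.0 and 38.3 FPKM in wild type and 31.3, 5.19 and 29.4 FPKM in hCAR-TG. Reads shared among these close relatives leave single members uncertain. In Cyp2c50 hCAR-TG replicate 2 was far below the other libraries, and without it the differences were smaller, -0.80, limma adjusted p = 0.00447 for Cyp2c50, -0.57, limma adjusted p = 0.0721 for Cyp2c37 and -0.66, limma adjusted p = 0.116 for Cyp2c54. Slco1a4, an organic anion uptake transporter, went from 6.44, 3.99 and 4.18 to 2.30, 2.04 and 1.14 FPKM (-1.05 ± 0.20, limma adjusted p = 0.00176). Rises were seen in Cyp2c55 (1.48, 2.27 and 1.24 against 2.80, 3.95 and 4.99 FPKM; 0.88 ± 0.16, limma adjusted p = 0.0011), the glutathione transferase gene Gstm2 (0.51 ± 0.13, limma adjusted p = 0.0108) and the epoxide hydrolase gene Ephx1 (0.33 ± 0.09, limma adjusted p = 0.0192). The listed targets thus did not share a direction, none of the 9 was called in a fit of the 6 libraries alone, and leaving out 1 library gave 1 to 3 rises and 3 to 7 falls. Cyp2c50 lost its call without wild type replicate 1 or 2 (limma adjusted p 0.0712 to 0.0767). Cyp2c37 lost its call without wild type replicate 1 or 2 or hCAR-TG replicate 2 (limma adjusted p 0.0721 to 0.117). Cyp2c54 lost its call without wild type replicate 1 or 2 or hCAR-TG replicate 2 (limma adjusted p 0.115 to 0.167). Gstm2 lost its call without wild type replicate 1 or 2 or hCAR-TG replicate 1 (limma adjusted p 0.0516 to 0.0759). Ephx1 lost its call without wild type replicate 2 or hCAR-TG replicate 1 or 3 (limma adjusted p 0.052 to 0.0824). The plot of drug-processing genes by replicate shows these values.

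**Figure D1:**
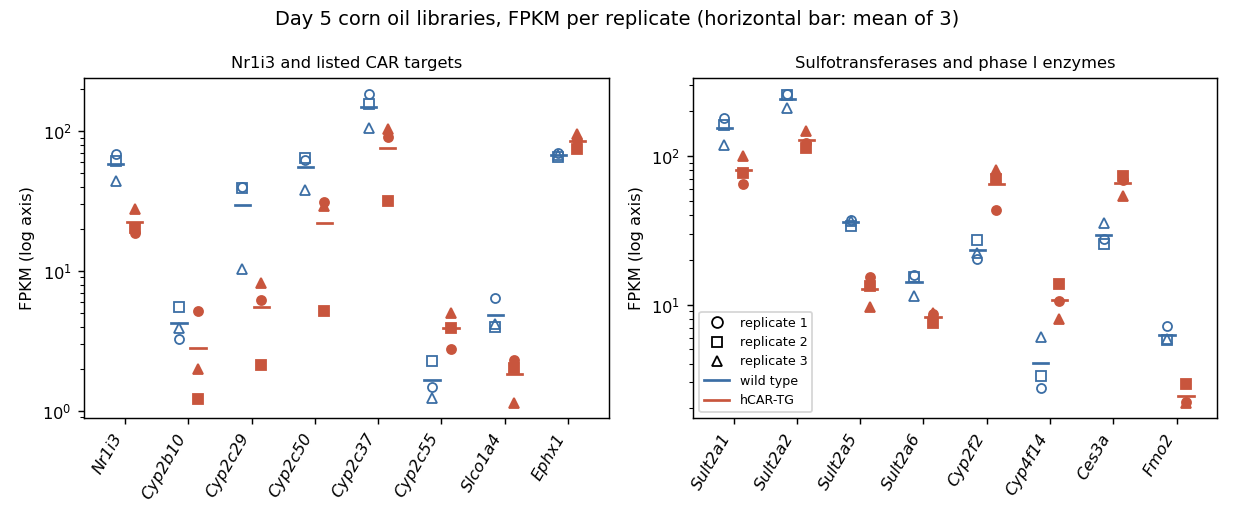
FPKM (log axis) of drug-processing genes in the day 5 corn oil libraries: open blue symbols are the 3 wild type replicates, filled red symbols the 3 hCAR-TG replicates, and horizontal bars the group means. Nr1i3 and the Sult2a genes separate the groups, Cyp2b10 overlaps, and in Cyp2c29 wild type replicate 3 (10.4 FPKM) sits close to hCAR-TG replicate 3 (8.28 FPKM).

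Sulfotransferases, which conjugate sulfate to steroids, bile acids and drugs, held falls only: 6 of 17 tested members fell, against 2.27% of all genes, with a median of -0.16 over the list, and the 6 are all Sult2a genes, a family that sulfates bile acids and DHEA. Sult2a5 was at 36.9, 34.0 and 36.5 FPKM in wild type and 15.3, 13.4 and 9.65 FPKM in hCAR-TG (-1.44 ± 0.10, limma adjusted p = 4.94e-09). Sult2a2 was at 262, 259 and 209.6 FPKM against 122, 114 and 146 FPKM (-0.93 ± 0.16, limma adjusted p = 0.000537). No hCAR-TG library of either gene reached the lowest wild type library. Sult2a1 (-0.92 ± 0.18), Sult2a4 (-0.69 ± 0.11) and Sult2a6 (-0.70 ± 0.09) fell as well, though the members are so alike that reads may be shared between them. Fitted on the 6 libraries alone, 2 of the 6 remained called.

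Across P450 families 1 to 4, 8 of 61 tested genes rose and 5 fell (median 0.04), against 8.29% and 2.27% of all tested genes, with ranges of 5 to 9 rises and 2 to 6 falls. Cyp2f2, a periportal P450, was at 20.1, 27.2 and 22.2 FPKM in wild type and 43.7, 69.9 and 80.7 FPKM in hCAR-TG (1.41 ± 0.17, limma adjusted p = 7.35e-06). Cyp4f14, a leukotriene hydroxylase, was at 2.74, 3.29 and 6.10 FPKM against 10.7, 13.7 and 8.02 FPKM (1.25 ± 0.20, limma adjusted p = 0.000325). For both genes every hCAR-TG library exceeded every wild type library. Among 67 other phase I enzymes 7 rose and 2 fell, against 8.29% and 2.27% of all genes. Rescaling by median of ratios turned these counts to 5 rises and 8 falls, and the ranges were 5 to 11 rises and 1 to 5 falls. The carboxylesterase genes Ces3a (27.5, 25.6 and 35.4 against 69.3, 73.3 and 53.9 FPKM; 1.13 ± 0.18, limma adjusted p = 0.000334) and Ces3b (0.79 ± 0.14) were among the rises, and the flavin monooxygenase gene Fmo2 fell from 7.21, 5.76 and 5.90 to 2.20, 2.91 and 2.18 FPKM (-1.09 ± 0.15, limma adjusted p = 6.61e-05). Of 27 glutathione transferases 5 rose (against 8.29% of all genes, range 3 to 6), including Mgst2 (0.75 ± 0.13), Mgst3 (0.88 ± 0.19) and Gsto1 (0.62 ± 0.13, or 0.41 without hCAR-TG replicate 3). Of 19 UDP-glucuronosyltransferases 1 rose (Ugt1a6a, 0.34 ± 0.08) and 1 fell (Ugt3a1, -0.63 ± 0.17, or -0.39 without hCAR-TG replicate 3), against 8.29% and 2.27% of all genes. Ugt1a6a lost its call without hCAR-TG replicate 1 (limma adjusted p = 0.0543). Ugt3a1 lost its call without wild type replicate 1 or hCAR-TG replicate 3 (limma adjusted p 0.0791 to 0.119). Uptake transporters held 3 falls and 2 rises among 15 (against 2.27% and 8.29% of all genes), with ranges of 0 to 3 rises and 2 to 3 falls, the falls including Slc22a7, an organic anion transporter, at 26.8, 29.4 and 35.1 FPKM against 16.7, 17.6 and 11.6 FPKM (-0.96 ± 0.14, limma adjusted p = 0.000103).

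Genes of the red cell lineage rose together. Of 22 tested erythroid markers 21 rose, against 8.29% of all tested genes, and the median log2 difference of the list was 1.32. The summed level of the list was 5796, 7309 and 8158 FPKM in wild type and 13962, 16983 and 17332 FPKM in hCAR-TG. Every hCAR-TG library thus lay well above the highest wild type library. The count was 20 or 21 when any 1 of the 6 libraries was left out, and 19 in a fit of the 6 libraries alone. At 5 FPKM as the filter, which leaves fewer members, 13 were called.

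The rise covered transcription factors, membrane proteins and globins alike. Of the regulators, Tal1, an early factor of blood formation, was at 1.16, 1.42 and 1.74 FPKM in wild type and 4.39, 4.28 and 4.62 FPKM in hCAR-TG (1.16 ± 0.07, limma adjusted p = 9.81e-10). Klf1, which drives terminal red cell genes, was at 1.35, 1.56 and 2.79 against 4.94, 5.08 and 6.58 FPKM (1.20 ± 0.14, limma adjusted p = 3.79e-06), and Gata1, the master factor of the lineage, at 0.444, 1.08 and 1.31 against 2.98, 3.21 and 3.58 FPKM (1.15 ± 0.11, limma adjusted p = 2.4e-07). In each case all hCAR-TG libraries lay above wild type, and wild type replicate 3 was the highest of its group. Of the membrane proteins, Slc4a1, the band 3 anion exchanger, was at 4.82, 8.97 and 14.6 FPKM in wild type and 38.5, 45.4 and 49.1 FPKM in hCAR-TG (2.22 ± 0.21, limma adjusted p = 4.63e-07). The Rhesus gene Rhd was at 0.728, 2.45 and 2.90 against 7.82, 8.74 and 9.76 FPKM (1.77 ± 0.18, limma adjusted p = 1.44e-06). The mitochondrial iron importer Slc25a37 had the lowest adjusted p of the list, with 6.81, 7.70 and 9.52 against 21.5, 25.9 and 23.7 FPKM (1.46 ± 0.09, limma adjusted p = 9.35e-10). No values of these genes overlapped between the genotypes.

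Globin and heme genes gave the bulk of the summed level. Hba-a1, an alpha globin gene, was at 2761, 3423 and 3773 FPKM in wild type and 6522, 8568 and 8417 FPKM in hCAR-TG (1.24 ± 0.19, limma adjusted p = 0.000213), and Hbb-b1, a beta globin gene, at 1827, 2373 and 2653 against 4109, 4860.1 and 5087 FPKM (1.05 ± 0.17, limma adjusted p = 0.000334). Globin copies are near-identical, so their single values are uncertain. Hbb-bs was the list's only tested member not called (31.2, 33.8 and 20.4 against 30.3, 53.9 and 77.3 FPKM; 0.83 ± 0.50, limma adjusted p = 0.342). Alas2, the first heme enzyme of red cells, was at 28.6, 34.2 and 40.2 against 60.4, 67.7 and 60.8 FPKM (0.87 ± 0.17, limma adjusted p = 0.00154). Alas1, the heme enzyme of other cells, was not called (-0.23 ± 0.44, limma adjusted p = 0.806). The smallest rise of the list was in Epor, the erythropoietin receptor (0.38 ± 0.08, limma adjusted p = 0.00333). Outside the list, and named for its size, Car1, a carbonic anhydrase of red cells and colon, was the largest rise of the comparison, from 0.751, 1.17 and 2.75 FPKM to 14.3, 25.5 and 40.6 FPKM (3.40 ± 0.27, limma adjusted p = 5.04e-08).

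**Figure D2:**
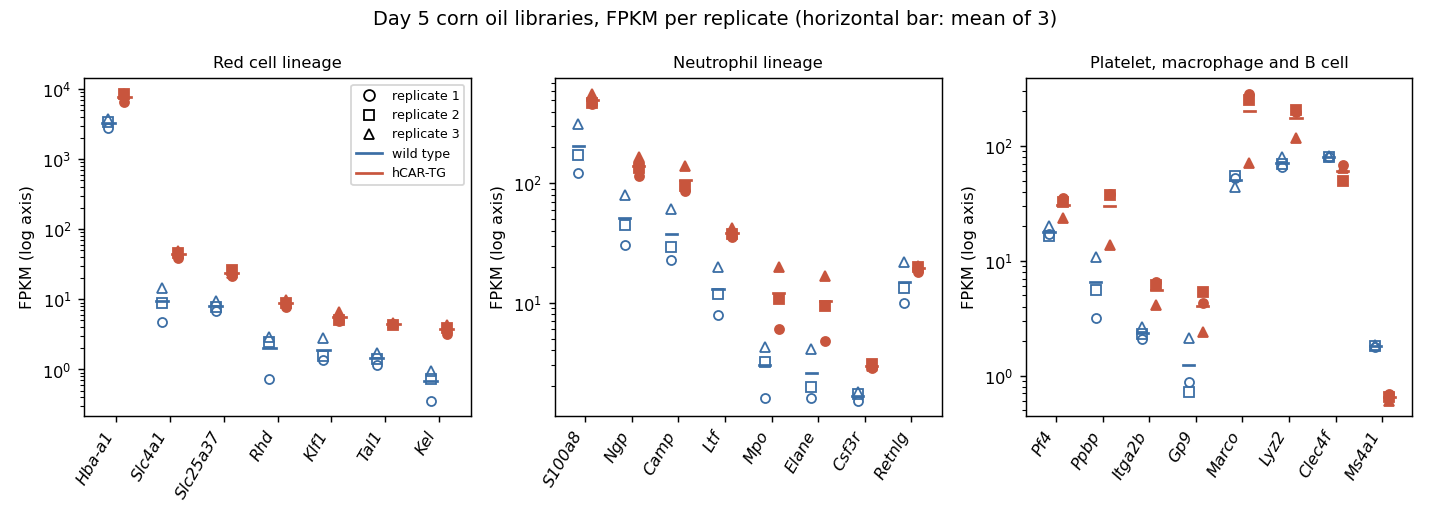
FPKM (log axis) of blood lineage genes in the day 5 corn oil libraries: open blue symbols are the 3 wild type replicates, filled red symbols the 3 hCAR-TG replicates, and horizontal bars the group means. Red cell genes separate completely, Retnlg overlaps between the genotypes, and in Ppbp and Marco hCAR-TG replicate 3 (triangle) lies below the other 2 hCAR-TG libraries.

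Promoters of the red cell genes are shown because these genes moved together. Of the 21 called members 15 had an entry in the RefSeq promoter table (GRCm38.p6, the mm10 build), and 13 of these had a single entry. The 200 bases before each start were searched on both strands for AGATAA or AGATAG and for TGATAA or TGATAG, forms of the site of GATA factors. These letters were chosen after the gene values were seen. They were found in 10 of 13 promoters (76.9%), against 21.4% of all 32851 entries. Of the motifs planned, CACGTG and GAANNTTC were found in 0 of 13 (5.26% and 5.36% of all entries) and CCAAT in 5 of 13 (29.3%). A match describes the letters in this window and is not evidence of binding. The 4 single-entry members with the largest log2 difference follow, 5′ to 3′, with the GATA forms in capitals on whichever strand they lie.
Rhd (chr4:134864336-134864535, plus strand): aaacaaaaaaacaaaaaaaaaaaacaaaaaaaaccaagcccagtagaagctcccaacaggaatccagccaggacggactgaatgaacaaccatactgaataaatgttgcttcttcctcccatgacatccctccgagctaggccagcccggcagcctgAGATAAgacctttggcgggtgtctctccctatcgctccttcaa
Trim10 (chr17:36869374-36869573, plus strand): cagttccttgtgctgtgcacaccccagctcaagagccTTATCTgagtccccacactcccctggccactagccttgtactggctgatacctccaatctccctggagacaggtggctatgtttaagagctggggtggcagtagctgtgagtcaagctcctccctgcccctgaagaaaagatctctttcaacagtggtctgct
Kel (chr6:41704326-41704525, minus strand): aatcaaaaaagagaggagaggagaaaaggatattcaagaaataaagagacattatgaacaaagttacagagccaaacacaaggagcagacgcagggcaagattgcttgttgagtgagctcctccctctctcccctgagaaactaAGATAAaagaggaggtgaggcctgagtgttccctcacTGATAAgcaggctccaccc
Tspo2 (chr17:48451502-48451701, minus strand): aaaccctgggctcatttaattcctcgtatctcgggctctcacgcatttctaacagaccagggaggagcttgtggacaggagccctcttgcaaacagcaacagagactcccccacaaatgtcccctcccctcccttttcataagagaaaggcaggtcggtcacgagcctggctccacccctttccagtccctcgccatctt
Rhd, Trim10 and Kel hold 1, 1 and 2 such sites, with first bases at -43 (Rhd), -163 (Trim10), and -56 and -19 (Kel) relative to the start, while Tspo2 holds none. Trim10, a ring finger gene of maturing erythroblasts, rose by 1.60 ± 0.12 on the log2 scale, Kel, the Kell blood group protease, by 1.53 ± 0.09, and Tspo2, a red cell translocator protein, by 1.47 ± 0.10. The gene with no match thus rose about as much as those with matches.

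Genes of the granulocyte lineage were higher too. Of 21 tested neutrophil markers 19 rose, against 8.29% of all genes (median 1.12). Of these 21, 2 passed the filter on low values only through the hCAR-TG libraries, and among the other 19 the count was 17. The summed level was 365, 532 and 932 FPKM in wild type and 1305, 1408 and 1649.7 FPKM in hCAR-TG. The groups did not overlap, but wild type libraries spread widely, with replicate 3 highest. Primary granule genes of early precursors rose, such as Mpo, myeloperoxidase (1.58, 3.19 and 4.22 against 5.97, 10.6 and 19.7 FPKM; 1.63 ± 0.27, limma adjusted p = 0.000433) and Elane, neutrophil elastase (1.58 ± 0.30, limma adjusted p = 0.0017). So did secondary granule genes of later stages: Ltf, lactoferrin, was at 7.82, 11.8 and 19.7 against 35.3, 37.9 and 41.9 FPKM (1.57 ± 0.21, limma adjusted p = 4.3e-05) and Camp, cathelicidin, at 22.5, 29.0 and 60.4 against 87.1, 94.8 and 139 FPKM (1.59 ± 0.26, limma adjusted p = 0.000433). S100a8, an abundant cytosolic protein of neutrophils, was at 123, 174 and 317 against 458, 473 and 563 FPKM (1.39 ± 0.31, limma adjusted p = 0.00593), and it was called at day 60 as well (1.44 ± 0.31, limma adjusted p = 0.00795). Not called were Retnlg (9.88, 13.4 and 21.7 against 18.1, 19.8 and 20.3 FPKM) and Lcn2 (41.6, 79.8 and 106 against 129, 155 and 105 FPKM), whose groups overlapped. Without wild type replicate 3 Retnlg was called higher (0.70, limma adjusted p = 0.0422). The list's count was 17 to 20 with any 1 library left out but 1 in a fit of the 6 libraries alone.

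The megakaryocyte and mast cell list had 9 tested members of its 15, mostly platelet and basophil genes, and these 9 rose, against 8.29% of all genes (median 0.75). The listed mast cell genes Cpa3, Tpsb2, Mcpt4, Fcer1a and Ms4a2 did not pass the filter, and their groups overlapped. The rise of the list therefore says nothing of mast cells. Ppbp, a platelet chemokine, was at 3.16, 5.56 and 10.7 FPKM in wild type and 38.3, 37.6 and 13.6 FPKM in hCAR-TG (2.04 ± 0.31, limma adjusted p = 0.000189), and Itga2b, the platelet integrin, at 2.10, 2.32 and 2.68 against 6.51, 6.14 and 4.09 FPKM (0.95 ± 0.12, limma adjusted p = 1.32e-05). In both, hCAR-TG replicate 3 was the lowest of its group. Pf4, another platelet chemokine (0.72 ± 0.19, limma adjusted p = 0.0198), and Mcpt8, a basophil protease (0.64 ± 0.12, limma adjusted p = 0.000833), rose as well. Pf4 lost its call without wild type replicate 1 or 2 or hCAR-TG replicate 1 or 2 (limma adjusted p 0.0691 to 0.0856). In a fit of the 6 libraries alone 3 of the 9 were called.

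Macrophage and lymphocyte lists were mixed. Of 18 Kupffer cell and macrophage markers 3 rose and 1 fell, against 8.29% and 2.27% of all genes (median 0.07). Without hCAR-TG replicate 3 the rises numbered 6, against 11.1% of all genes. Marco, a scavenger receptor, was at 52.2, 55.2 and 44.1 FPKM in wild type and 284, 251 and 70.7 FPKM in hCAR-TG (1.75 ± 0.38, limma adjusted p = 0.00543), with replicate 3 far below the other 2 hCAR-TG libraries. Lyz2, the macrophage lysozyme, showed the same order (65.2, 70.0 and 79.4 against 197, 207 and 116 FPKM; 1.23 ± 0.21, limma adjusted p = 0.00066), and Cd163, the hemoglobin scavenger receptor, was called higher (0.70 ± 0.19, limma adjusted p = 0.0199) although hCAR-TG replicate 3 lay within the wild type range. Clec4f, a lectin of Kupffer cells, fell from 80.0, 80.2 and 81.3 to 67.6, 49.9 and 64.2 FPKM (-0.42 ± 0.11, limma adjusted p = 0.017). Of 15 lymphocyte markers 3 fell, against 2.27% of all genes, and none rose. Without hCAR-TG replicate 3 there were 4 falls and 3 rises, against 3.13% and 11.1% of all genes. The 3 falls were all of B cell genes: Ms4a1, which encodes CD20, was at 1.79, 1.82 and 1.87 against 0.697, 0.655 and 0.604 FPKM (-0.77 ± 0.08, limma adjusted p = 1.6e-06), and Cd79b (-0.48 ± 0.11, limma adjusted p = 0.00536) and Cd79a (-0.40 ± 0.12, limma adjusted p = 0.0344) fell less. The T cell gene Cd3g was not called (-0.04 ± 0.11, limma adjusted p = 0.868). Cd163 lost its call without wild type replicate 1 or 2 or hCAR-TG replicate 1 or 2 (limma adjusted p 0.0842 to 0.107). Clec4f lost its call without wild type replicate 1 or 2 or hCAR-TG replicate 2 (limma adjusted p 0.0507 to 0.106). Cd79a lost its call without wild type replicate 1 or 3 or hCAR-TG replicate 1 or 2 (limma adjusted p 0.071 to 0.126).

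Among the largest falls were eosinophil-associated genes. The ribonuclease genes Ear1 (13.3, 32.4 and 50.6 against 5.30, 3.06 and 12.8 FPKM; -2.04 ± 0.51, limma adjusted p = 0.0156) and Ear2 (19.4, 39.3 and 47.3 against 8.70, 5.98 and 18.5 FPKM; -1.64 ± 0.49, limma adjusted p = 0.0415) were lower, as were the eosinophil chemokine Ccl24 (7.32, 10.1 and 9.09 against 3.89, 2.21 and 4.61 FPKM; -1.13 ± 0.25, limma adjusted p = 0.00469) and Retnla, a resistin-like gene of alternatively activated macrophages (6.16, 7.66 and 2.49 against 0.187, 0.440 and 1.81 FPKM; -1.83 ± 0.34, limma adjusted p = 0.00162). The Ear genes are near-identical, and the Ear1 and Ear2 values may share reads. Ear2 lies on chromosome 14 and is among the genes called in the same direction at both ages, described below. At day 60 its mean was 3.42 FPKM in wild type and 0.133 FPKM in hCAR-TG (-1.95 ± 0.49, limma adjusted p = 0.0271). Between the ligand groups of day 5 its difference was -2.34 (limma adjusted p = 0.00113). The granule genes Epx (2.82, 9.52 and 11.5 against 3.17, 2.41 and 10.3 FPKM) and Prg2 (40.9, 105 and 183 against 48.0, 35.6 and 111 FPKM), both named after their values were seen, overlapped between the genotypes and were not called. Ear1 lost its call without wild type replicate 2 or 3 or hCAR-TG replicate 2 (limma adjusted p 0.061 to 0.0789). Ear2 lost its call without wild type replicate 2 or 3 or hCAR-TG replicate 1 or 2 (limma adjusted p 0.0982 to 0.152).

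The blood lists were also read in the other groups. Erythroid markers summed to 11064, 11136 and 9764 FPKM in CITCO-treated hCAR-TG newborns and 8401, 7587 and 6810.1 FPKM in TCPOBOP-treated wild type newborns. Between those libraries, which share none with the corn oil groups but also differ in ligand, 42.8% of all tested genes were called. Of the 12282 tested genes, 2451 were called higher in hCAR-TG and 2801 lower. Against this background, 19 of the 22 erythroid markers were called higher in hCAR-TG. So were 8 of the 9 megakaryocyte and mast cell markers, while of the 21 neutrophil markers 9 were higher and 1 lower. The neutrophil sums were 1319.9, 950.3 and 757 FPKM against 598, 665 and 624 FPKM there. At day 60 the erythroid sums were 2125, 1852 and 2459 FPKM in wild type and 1387, 1845 and 1635 FPKM in hCAR-TG under corn oil. There limma called 0 of the 22, against 4.90% of all genes (3.05% higher, 1.85% lower), with 1 higher and 3 lower at an unadjusted p under 0.05. Of the neutrophil markers 4 of 21 were called higher at day 60, and of the megakaryocyte and mast cell markers limma called 0 of 9 (0 higher and 0 lower at an unadjusted p under 0.05). The difference between ages was called, toward a smaller hCAR-TG excess at day 60, for 21 of 22 erythroid, 11 of 21 neutrophil and 8 of 9 megakaryocyte and mast cell markers, against 6.94% of all genes (4.84% in that direction). Some of these markers were near 0 FPKM at day 60 in both genotypes. Mean FPKM in wild type and hCAR-TG were 0.031 and 0.011 for Trim10 and 0.020 and 0.018 for Camp. For such genes the difference between ages restates that of day 5 and says nothing of a change with age. Hba-a1 was still well expressed at day 60 (means 953 and 708 FPKM), and its difference between ages was -1.66 ± 0.27, limma adjusted p = 0.000689. The plot of summed markers shows all 3 lists in the 6 groups.

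**Figure D3:**
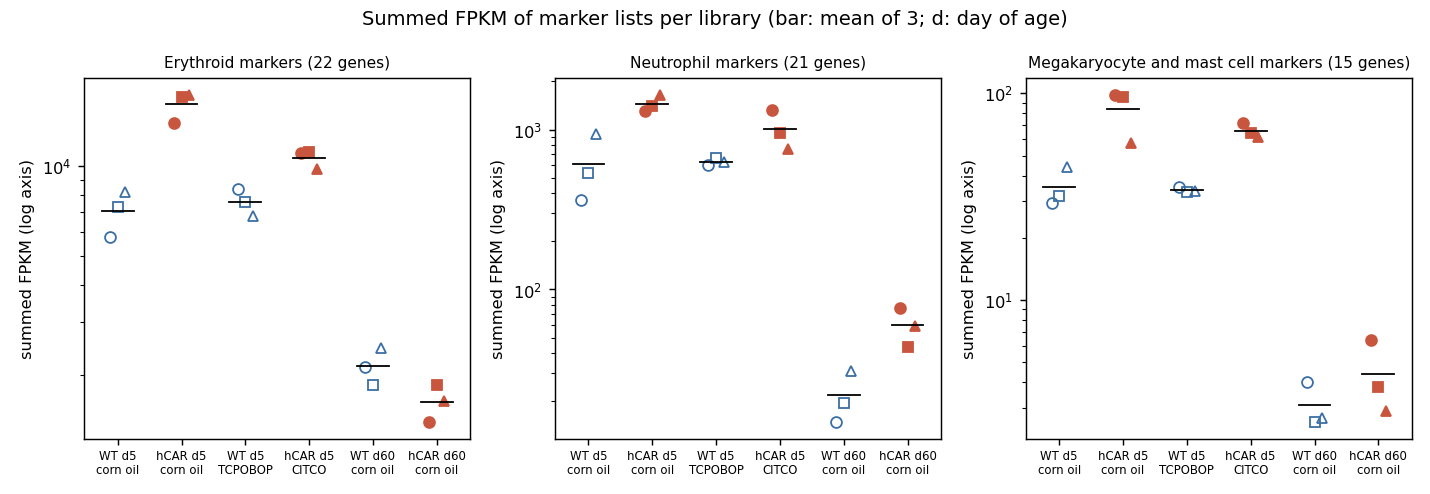
Summed FPKM (log axis) of the erythroid, neutrophil, and megakaryocyte and mast cell lists in 18 libraries: open blue symbols are wild type, filled red symbols hCAR-TG, 1 symbol per replicate, with bars at the mean of 3. The day 5 hCAR-TG corn oil libraries lie above the wild type ones in each list, and the sums of both genotypes are far lower at day 60.

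Genes of gut epithelium were detected in the hCAR-TG newborn livers. Of 44 listed intestinal markers 24 passed the filter, 13 of them only through the hCAR-TG corn oil libraries of day 5, so that a count over the list says little. Among the other 11 tested members 2 rose, Tff3 and Lyz1, against 8.29% of all genes. Tff3, a trefoil peptide of goblet cells, was at 4.11, 4.40 and 4.35 FPKM in wild type and 18.95, 28.3 and 92.8 FPKM in hCAR-TG (2.85 ± 0.41, limma adjusted p = 0.000165), and Lyz1, the Paneth cell lysozyme, at 0.703, 0.782 and 0.864 against 2.96, 3.50 and 3.59 FPKM (1.28 ± 0.15, limma adjusted p = 7.28e-06). Lyz1 may share reads with its close relative Lyz2, the macrophage lysozyme, which was far more abundant and also rose. The genes named next are among the 13, which had to differ because of the filter, so FPKM are given without a test. Lypd8, a protein of colonic epithelium, was at 0.0803, 0.156 and 1.13 against 6.28, 10.8 and 16.4 FPKM. The antimicrobial lectin gene Reg3b was at 0.0796, 0.783 and 0.161 against 2.58, 4.78 and 9.89 FPKM. These genes were seen in all 3 hCAR-TG libraries, with replicate 3 highest.

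Paneth cell defensins and the guanylin gene followed the same pattern. Defa24 was at 0, 0 and 0.474 FPKM in wild type and 3.03, 5.95 and 14.5 FPKM in hCAR-TG, Defa2 at 0.0467, 0.0530 and 0.0868 against 2.004, 3.20 and 6.06 FPKM, and Defa20 at 0, 0.0528 and 0.0833 against 1.97, 3.03 and 5.54 FPKM. Guca2a, guanylin, was at 0, 0 and 0.606 against 1.24, 4.53 and 11.4 FPKM. Defensin copies are near-identical and may share reads. Of the 20 listed members that did not pass the filter, 15 stayed under 1 FPKM in all 6 libraries. In 14 of the 20 every hCAR-TG library lay above every wild type library. Among tested genes that share was 16.3%, but it was not taken over genes below the filter, so the 14 has no like background. Low among these 20 members were enterocyte enzymes. Sis, sucrase-isomaltase, reached at most 0.00414 FPKM in wild type and 0.0896 FPKM in hCAR-TG. Alpi, intestinal alkaline phosphatase, reached at most 0.0328 FPKM in wild type and 0.129 FPKM in hCAR-TG. Higher, and apart between the genotypes, were the mucin genes Muc13 (0.0166, 0.0292 and 0.101 against 0.782, 0.916 and 0.931 FPKM) and Muc2 (0.0177, 0.0249 and 0.119 against 0.549, 0.724 and 0.640 FPKM), the cadherin gene Cdh17 (0.0777, 0.0828 and 0.0503 against 0.290, 0.425 and 0.386 FPKM) and Phgr1 (0, 0.291 and 0.127 against 0.654, 1.96 and 4.11 FPKM). The gut transcription factor gene Cdx2 was at 0, 0 and 0.0120 against 0.115, 0.154 and 0.189 FPKM and Vil1, villin, at 0.189, 0.222 and 0.144 against 0.376, 0.490 and 0.943 FPKM. Fabp2, the intestinal fatty acid binding protein, which liver also expresses, was at 62.2, 55.2 and 75.2 against 57.3, 56.5 and 36.3 FPKM and was not called (-0.37 ± 0.17, limma adjusted p = 0.178). In the CITCO-treated hCAR-TG newborns Lypd8 was at 0.233, 0.0922 and 0 FPKM and Reg3b at 0.414, 0 and 0 FPKM, far below the corn oil libraries of the same genotype. Whether gut tissue or RNA entered these samples was not tested.

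Of 18 hepatocyte markers 2 fell, against 2.27% of all genes, and 6 fell without hCAR-TG replicate 3, against 3.13%. The 2 were the apolipoprotein gene Apoa1 (-0.31 ± 0.08, limma adjusted p = 0.0102) and the transthyretin gene Ttr (-0.32 ± 0.09, limma adjusted p = 0.0231), and 1 marker rose, against 8.29% of all genes. In the list of fetal and maturing hepatocyte genes 7 of 27 rose and 2 fell, against 8.29% and 2.27% of all genes, with ranges of 4 to 7 rises and 0 to 4 falls. The largest of the 7 rises is Tff3, which is also on the intestinal list. Afp, alpha-fetoprotein, which hepatocytes silence after birth, was at 3315, 4333 and 3685 FPKM in wild type and 8353, 6618 and 9405 FPKM in hCAR-TG (1.10 ± 0.14, limma adjusted p = 2.18e-05). All hCAR-TG libraries exceeded all wild type libraries. The imprinted growth genes Igf2 (0.33 ± 0.09, limma adjusted p = 0.0181), Mest (0.49 ± 0.11, limma adjusted p = 0.00449) and Grb10 (0.62 ± 0.15, limma adjusted p = 0.00891) and the fetal gene Dlk1 (0.67 ± 0.18, limma adjusted p = 0.0181) rose by less, while the imprinted RNA H19 was not called (0.12 ± 0.13, limma adjusted p = 0.648). The repressor genes of Afp, Zhx2 (-0.03 ± 0.07, limma adjusted p = 0.846) and Zbtb20 (0.09 ± 0.14, limma adjusted p = 0.757), were not called either. Apoa1 lost its call without wild type replicate 1 or hCAR-TG replicate 2 (limma adjusted p 0.0594 to 0.061). Ttr lost its call without wild type replicate 2 or 3 or hCAR-TG replicate 1 or 2 (limma adjusted p 0.0609 to 0.1). Igf2 lost its call without wild type replicate 2 or hCAR-TG replicate 2 (limma adjusted p 0.0659 to 0.12). Dlk1 lost its call without wild type replicate 2 or 3 or hCAR-TG replicate 3 (limma adjusted p 0.0693 to 0.0783).

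Hepcidin and other secreted proteins varied between replicates. Hamp, which encodes the iron-regulating hormone hepcidin, was at 2.39, 3.24 and 4.32 FPKM in wild type and 277, 23.7 and 6.28 FPKM in hCAR-TG. The groups did not overlap, but the hCAR-TG libraries ran from just above wild type to many times its level (3.12 ± 0.86, limma adjusted p = 0.0284), and without hCAR-TG replicate 1 the difference was 1.66. Of 29 acute phase genes 5 rose and 1 fell, against 8.29% and 2.27% of all genes, with ranges of 3 to 6 rises and 0 to 2 falls. The serine protease inhibitor gene Serpina3k was at 25.9, 31.0 and 28.0 against 66.0, 50.4 and 76.3 FPKM (1.14 ± 0.16, limma adjusted p = 4.54e-05), the heme carrier gene Hpx rose (0.31 ± 0.06, limma adjusted p = 0.00314), and Saa1, serum amyloid A, fell from 8.88, 15.6 and 10.3 to 4.46, 3.77 and 4.66 FPKM (-1.22 ± 0.35, limma adjusted p = 0.0321). Among heme and iron genes 7 of 27 rose (against 8.29% of all genes, range 5 to 7), including the erythroid ones above and Hmox1, heme oxygenase, at 53.9, 55.7 and 52.7 against 133, 107 and 88.6 FPKM (0.98 ± 0.12, limma adjusted p = 1.11e-05). Hmox1 was also 1 of 5 rises among 23 NRF2 targets (against 8.29% of all genes, range 3 to 8), with the ferritin gene Ftl1 (0.34 ± 0.08, limma adjusted p = 0.00988) and the glutathione reductase gene Gsr (0.32 ± 0.09, limma adjusted p = 0.0204). Hamp lost its call without wild type replicate 1 or 2 or hCAR-TG replicate 1 (limma adjusted p 0.064 to 0.0941). Saa1 lost its call without wild type replicate 2 or hCAR-TG replicate 1 or 2 or 3 (limma adjusted p 0.0528 to 0.152). Ftl1 lost its call without wild type replicate 2 (limma adjusted p = 0.0706). Gsr lost its call without wild type replicate 1 or hCAR-TG replicate 1 or 2 (limma adjusted p 0.0629 to 0.118).

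Counts of proliferation and stress genes moved with hCAR-TG replicate 3. Of 54 cell cycle genes 8 rose with all libraries (median 0.21) and 18 without hCAR-TG replicate 3, against 8.29% and 11.1% of all genes in the same fits, and the range was 2 to 21. E2f2, an E2F factor of erythroblasts and other cycling cells, was at 2.27, 3.23 and 4.53 against 6.501, 7.62 and 7.74 FPKM (0.96 ± 0.15, limma adjusted p = 0.000136), and the licensing gene Cdc6 rose (0.50 ± 0.09, limma adjusted p = 0.000848). Mki67, the common proliferation marker, was at 6.66, 7.74 and 11.5 against 15.6, 15.8 and 5.49 FPKM, with hCAR-TG replicate 3 below every wild type library, and was not called (0.37 ± 0.25, limma adjusted p = 0.403). Without that replicate it was called higher (0.82, limma adjusted p = 0.00104). Of 28 immediate early and heat shock genes 7 rose, and 13 without hCAR-TG replicate 3 (against 8.29% and 11.1% of all genes, range 2 to 13). Zfp36, which encodes an mRNA-destabilising protein, was at 11.4, 10.3 and 13.9 against 25.4, 38.8 and 21.9 FPKM (1.18 ± 0.24, limma adjusted p = 0.00303). Ppp1r15a, a phosphatase subunit of the integrated stress response, was at 6.22, 5.82 and 7.10 against 12.01, 14.3 and 12.01 FPKM (0.90 ± 0.10, limma adjusted p = 2.78e-06). In 31 interferon and antigen presentation genes 6 fell (against 2.27% of all genes, range 4 to 7), such as the histocompatibility genes H2-K1 (-0.42 ± 0.10, limma adjusted p = 0.00655) and H2-D1 (-0.38 ± 0.09, limma adjusted p = 0.00903) and the interferon-induced gene Oasl2 (-0.46 ± 0.08, limma adjusted p = 0.000369). H2-D1 lost its call without hCAR-TG replicate 2 (limma adjusted p = 0.0625).

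Lists of lipid and energy metabolism held counts of 1 to 3 calls, to be read against 8.29% of all genes higher and 2.27% lower. In cholesterol synthesis 1 of 26 fell (Insig2, an SREBP retention protein, -0.54 ± 0.12, limma adjusted p = 0.00645), and in lipogenesis 1 of 22 fell (Elovl5, a fatty acid elongase, 165, 145 and 161 against 105, 103 and 86.5 FPKM; -0.67 ± 0.13, limma adjusted p = 0.00112). Both were higher in hCAR-TG at day 60 (0.66 ± 0.12 and 0.79 ± 0.13). In fatty acid oxidation 2 of 41 rose, the carnitine palmitoyltransferase gene Cpt2 (0.35 ± 0.08, limma adjusted p = 0.00593) and Hadha (0.20 ± 0.06, limma adjusted p = 0.0482, or 0.12 without hCAR-TG replicate 3). In gluconeogenesis 3 of 21 rose, including the pyruvate carboxylase gene Pcx (167, 143 and 158 against 202, 212 and 227 FPKM; 0.45 ± 0.07, limma adjusted p = 0.000204). Of 47 ribosomal protein genes 1 fell (Rpl23, -0.21 ± 0.05, limma adjusted p = 0.0163). Of 51 respiratory chain genes 3 fell, and 13 without hCAR-TG replicate 3 (against 3.13% of all genes), with a range of 0 to 13. Insig2 lost its call without wild type replicate 1 (limma adjusted p = 0.052). Cpt2 lost its call without wild type replicate 2 (limma adjusted p = 0.0538). Hadha lost its call without wild type replicate 1 or 2 or hCAR-TG replicate 3 (limma adjusted p 0.122 to 0.169). Rpl23 lost its call without wild type replicate 1 or 2 or hCAR-TG replicate 2 (limma adjusted p 0.0529 to 0.0678).

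Positions of the called genes were read next, with particular attention to the region of Nr1i3 on chromosome 1. Within 1 Mb of its start 37 genes were tested and 48.6% were called, 15 lower and 3 higher. Within 5 Mb 40.0% of 75 genes were called and within 20 Mb 21.2% of 226 genes, against 10.6% over the genome. At day 60 the shares were 48.6%, 26.7% and 13.3%, against 4.90%. Calls of both ages were thus denser near Nr1i3. Pcp4l1, a calmodulin-binding protein gene directly upstream, was at 65.6, 57.7 and 34.7 FPKM in wild type and 15.8, 11.8 and 17.4 FPKM in hCAR-TG (-1.71 ± 0.17, limma adjusted p = 1.44e-06). Downstream lie Tomm40l, a mitochondrial import gene (27.6, 25.4 and 15.8 against 11.6, 11.9 and 15.6 FPKM; -0.74 ± 0.16, limma adjusted p = 0.00391), and Fcer1g, the shared signalling chain of Fc receptors (41.6, 42.1 and 43.6 against 31.7, 28.8 and 29.0 FPKM; -0.50 ± 0.09, limma adjusted p = 0.000929).

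Not all neighbours were called. Among the tested genes nearest to Nr1i3, Pcp4l1, Fcgr3 (-0.42 ± 0.10, limma adjusted p = 0.00721), Sdhc (-0.35 ± 0.09, limma adjusted p = 0.0169), Tomm40l and Fcer1g fell, Sdhc with overlapping groups. Fcgr3 lost its call without hCAR-TG replicate 2 (limma adjusted p = 0.0523). Sdhc lost its call without wild type replicate 3 or hCAR-TG replicate 1 or 2 (limma adjusted p 0.0709 to 0.0893). Fcgr4, Cfap126, Apoa2 and B4galt3 were not called (log2 differences -0.40 ± 0.14, -0.16 ± 0.11, -0.12 ± 0.10 and 0.06 ± 0.08). Apoa2 was called lower without hCAR-TG replicate 3. The groups of Fcgr4 did not overlap (-0.40 ± 0.14, limma adjusted p = 0.066), and it was called lower under median of ratios scaling (-0.44, limma adjusted p = 0.0488), with array weights (-0.67, limma adjusted p = 0.000999) and without hCAR-TG replicate 1 (-0.56, limma adjusted p = 0.0104). Nr1i3 and Tomm40l lie on opposite strands and their loci in the files overlap, and since the counting's use of strand is not given, reads of the pair cannot be told apart with certainty. Pcp4l1 and Tstd1, a sulfurtransferase gene (147, 144 and 131 against 82.1, 70.0 and 86.2 FPKM; -0.82 ± 0.09, limma adjusted p = 1.92e-06), reversed with age: at day 60 they were higher in hCAR-TG by 1.19 ± 0.17, limma adjusted p = 0.000233, and 1.20 ± 0.09, limma adjusted p = 1.58e-08. The plot of distance from Nr1i3 shows both ages. Tstd1 was named after its values were seen.

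**Figure D4:**
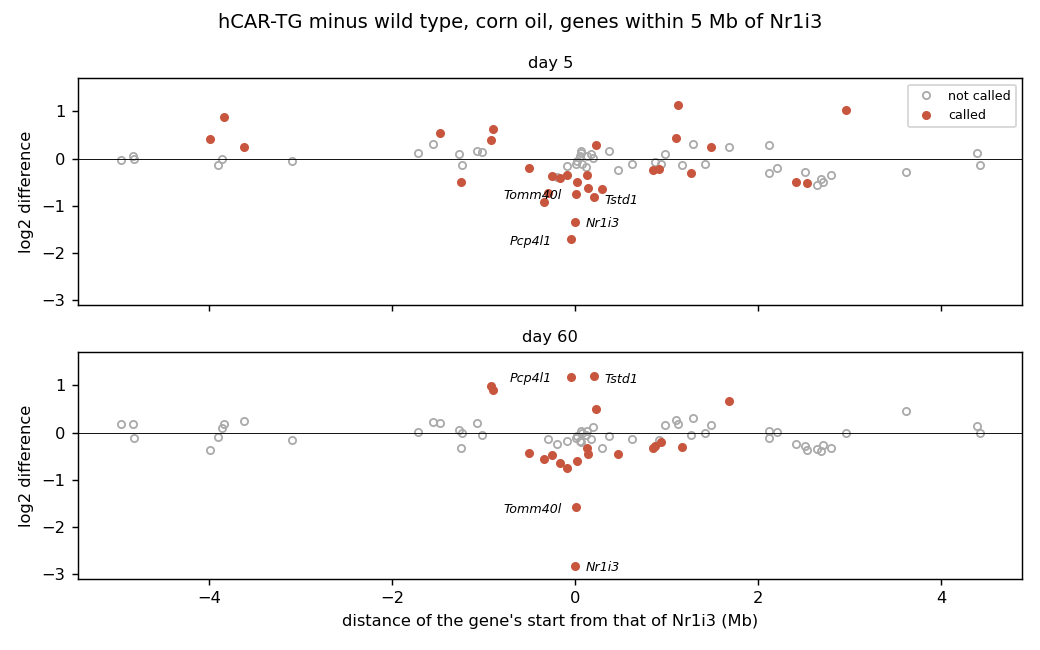
Log2 difference (hCAR-TG minus wild type, corn oil) of tested genes against the distance of their start from that of Nr1i3 in Mb, at day 5 (top) and day 60 (bottom), filled red points being called genes and open grey points the others. Calls cluster within 1 Mb, and Pcp4l1 and Tstd1 lie below 0 at day 5 and above 0 at day 60.

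Some differences were seen at both ages. In the same direction at both day 5 and day 60 were 86 genes (0.700% of those tested), 57 higher (0.464%) and 29 lower (0.236%), while 27 (0.220%) were called in opposite directions, so that 0.920% were called at both ages. Of the 86, 25 lie on chromosome 1 and 17 on chromosome 14, together 48.8%, against 9.17% of all tested genes and 12% of the genes called at day 5. The largest of these rises was Ctse, which encodes the aspartic protease cathepsin E, at chr1:131638313-131675507. It was at 1.18, 2.37 and 3.02 FPKM in wild type and 22.0, 23.7 and 25.1 FPKM in hCAR-TG at day 5 (2.99 ± 0.16, limma adjusted p = 3.27e-10). At day 60 it was at 0.0948, 0.0249 and 0.0612 FPKM against 13.7, 13.8 and 12.8 FPKM (3.77 ± 0.16, limma adjusted p = 6.31e-12), and between the ligand groups of day 5 the difference was 2.31 ± 0.16, limma adjusted p = 1.17e-09. In every one of these comparisons the genotypes were far apart.

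On the same chromosome, Pm20d1, an enzyme of N-acyl amino acids, was at 13.5, 13.6 and 14.5 against 31.8, 32.0 and 35.0 FPKM at day 5 (1.19 ± 0.08, limma adjusted p = 1.59e-09) and 1.02 ± 0.08 higher at day 60. On chromosome 14, Entpd4, a Golgi nucleotidase gene listed at 2 loci whose values were summed, was at 23.9, 22.5 and 22.5 against 11.5, 11.4 and 11.4 FPKM (-0.95 ± 0.06, limma adjusted p = 1.59e-09) and -0.67 ± 0.06 at day 60. Gch1, the first enzyme of tetrahydrobiopterin synthesis (23.3, 22.2 and 21.5 against 13.4, 12.4 and 14.3 FPKM; -0.70 ± 0.11, limma adjusted p = 0.000126), and Psmb5, a catalytic proteasome subunit (44.5, 48.8 and 54.8 against 33.3, 31.6 and 36.6 FPKM; -0.53 ± 0.07, limma adjusted p = 2.72e-05), lie on chromosome 14 too and were lower at day 60 by similar amounts (-0.69 ± 0.11 and -0.69 ± 0.07). No hCAR-TG library of these 4 genes, replicate 3 included, entered the wild type range at day 5. Pm20d1, Entpd4 and Gch1 were named after their values were seen. Whether these regions differ in background between the mouse lines was not tested.

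**Figure D5:**
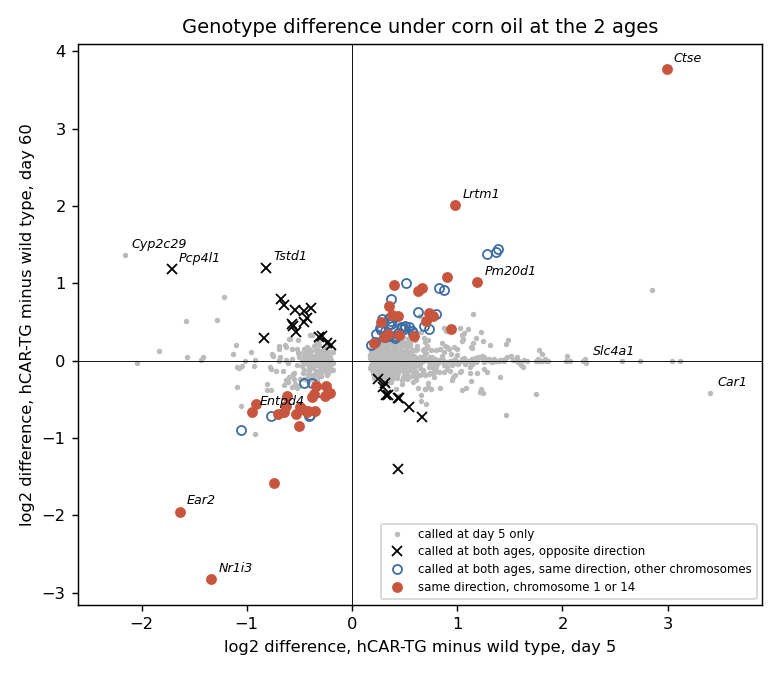
Log2 difference between genotypes under corn oil at day 5 (x axis) and day 60 (y axis) for genes called at day 5, which share no library between the axes. Filled red circles are genes on chromosome 1 or 14 called in the same direction at both ages, open blue circles the same on other chromosomes, crosses genes called in opposite directions and grey dots genes called at day 5 only, such as Slc4a1 near 0 on the day 60 axis.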

How the data were processed

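Liver RNA was extracted with RNA Bee and made into TruSeq stranded mRNA libraries, per the labels' protocols. The authors deposited one table of FPKM per library with the bounds of each FPKM interval. The build was mm10, per the submitters' processing notes, and the aligner, quantifier and annotation are not given in the sources used here. Entries sharing a symbol were summed (279 symbols, apart from 27 date-like entries kept apart by locus), and 5 genes with a failed estimate were left out. One model of the 8 groups was fitted to log2(FPKM + 1) of the 24 libraries with limma 3.58.1 (empirical Bayes, trend and robust options on) in R 4.3.3, with 16 residual degrees of freedom, two-sided tests and Benjamini-Hochberg adjustment over 12282 genes. Exact tests of 3 against 3 libraries cannot go below p = 0.1 and were not used. The fit was tested on simulated data. Members and 49 gene lists were chosen with earlier results of these data known, and the ligand groups and the GATA letters were taken up after these data were seen. Named are Nr1i3, Nr1i2 and Cyp2b10, the 12 largest called rises and 12 largest falls with groups that do not overlap (predicted genes left out), the 5 tested genes on each side of Nr1i3, and up to 4 called members per list by adjusted p. Some genes that this rule takes are not reported here. Further list members, the 6 genes said to be so in the text and those of the closing observations were chosen after their values were seen. Alternatives were median of ratios scaling, another pseudocount, other filters, array weights, a constant prior, a replicate block, a fit without the other groups, a 2-fold call, repeated loci kept apart and each library left out.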

Additional observations from a re-analysis of the deposited data

Results flagged for a closer look

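The genotype difference under corn oil was tested for a change between day 5 and day 60, and the results below are those called by that interaction (limma, 852 of 12282 genes, 6.94%). Each value is the day 60 difference minus the day 5 difference on the log2(FPKM + 1) scale. Of genes tied to CAR, Cyp2b10 changed by 4.65, Cyp2c29 by 3.53, Cyp2c50 by 2.09, Sult2a5 by 1.44 and Nr1i3 by -1.49. Of blood genes higher in hCAR-TG newborns, Car1 changed by -3.82, Slc4a1 by -2.25 and Ppbp by -1.98, and limma called none of these 3 at day 60, when Slc4a1 and Ppbp were under 1 FPKM in both genotypes. The gut genes below passed the filter only through the day 5 hCAR-TG corn oil libraries and were at or near 0 FPKM at day 60 in both genotypes, so their values restate the day 5 difference and say nothing of a change with age: Lypd8 by -3.04, Defa24 by -2.73, Reg3b by -2.20, Guca2a by -2.19, Defa2 by -2.07 and Defa20 by -2.03. Of immune and acute phase genes lower in hCAR-TG newborns, Retnla changed by 1.95, Saa1 by 2.04 and Ccl24 by 1.22. On chromosome 1, Pcp4l1 changed by 2.90 and reversed direction, Tomm40l by -0.84, Cfap126 by -0.59 and Ctse by 0.78, the last being larger at day 60. With 3 libraries per group no single library could be judged an outlier within its group by a test. Replicate 3 of the day 5 hCAR-TG corn oil libraries nevertheless stood apart, as described above.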

How the results depend on the processing

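Counts of calls moved with the processing. At day 5 the 1297 calls (1018 higher, 279 lower) became 817 (625 higher) with a filter at 5 FPKM, 191 (157 and 34) in a fit of the 6 libraries alone, 4571 (3471 and 1100) with array weights, which give hCAR-TG replicate 3 a weight of 0.0777, and 130 (109 and 21) when a 2-fold change was also asked; rescaling by median of ratios, which moves the median of all genes from 0.03 to -0.01, gave 677 rises. Leaving out 1 library gave 801 to 1745 calls, 613 to 1361 higher and 160 to 384 lower. At day 60 the 602 calls became 230 in the compared libraries alone, 1579 with array weights and 56 at 2-fold, and for the difference between ages 852 became 288, 3007 and 165. A lower pseudocount, no filter, a constant prior and repeated loci kept apart left each of these counts within 1.5 times. With a replicate block there were 1219 calls at day 5; same-numbered libraries of the genotypes did not deviate together (correlations across genes 0.10, -0.05 and -0.07), so the numbers were not taken as pairs. Of 196 genes followed, 172 were called as reported. Of these 172, 118 lost the call in the 6 libraries alone, 14 under rescaling, 15 at a pseudocount of 0.1 and 6 under the block. The cause was not tested. Signs turned for uncalled genes only, with 1 library left out at a time: Nr1i2 (-0.172 to 0.0988), B4galt3 (-0.0134 to 0.1), Actg2 (-0.251 to 1.05, -0.535 with array weights), Cd3g (-0.135 to 0.079), Ddx3y (-0.521 to 0.217, 0.214 with array weights), Zbtb20 (-0.0224 to 0.223) and Zhx2 (-0.0533 to 0.0107). Absolute depth is unknown, so no limit could be set for genes near 0.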

Other observations

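Further genes, all chosen after their values were seen, add to the gene groups above. Dmtn, a spectrin-binding red cell protein, was at 0.462, 0.583 and 0.939 FPKM in wild type and 3.23, 3.52 and 3.73 FPKM in hCAR-TG (1.44 ± 0.08, limma adjusted p = 2.3e-10), and Hemgn, a nuclear protein of blood precursors, at 1.08, 2.02 and 3.14 against 10.50, 10.4 and 8.41 FPKM (1.86 ± 0.15, limma adjusted p = 2.38e-08). Stfa1, a stefin of neutrophils, was at 42.0, 48.2 and 82.9 against 157, 162 and 142 FPKM (1.46 ± 0.20, limma adjusted p = 6.12e-05). Orm1, an acute phase glycoprotein, was at 3.84, 6.69 and 4.49 against 31.4, 99.5 and 2.69 FPKM, so that hCAR-TG replicate 3 lay below wild type while its 2 companions lay far above (1.96 ± 0.71, limma adjusted p = 0.0955), and without that replicate the difference was 3.27, limma adjusted p = 6.62e-06.

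On chromosome 14 the purine nucleoside phosphorylase genes Pnp (52.5, 53.8 and 45.9 against 23.9, 22.4 and 24.4 FPKM; -1.07 ± 0.06, limma adjusted p = 8.72e-10) and Pnp2 (-0.84 ± 0.08, limma adjusted p = 3.34e-07), close relatives that may share reads, were lower in hCAR-TG newborns, and at day 60 they were at -0.09 ± 0.06, limma adjusted p = 0.525, and 0.29 ± 0.08, limma adjusted p = 0.0351. Ren1, the renin gene of chromosome 1, was at 0.0186, 0.0652 and 0.0567 against 0.733, 1.29 and 0.894 FPKM at day 5 (0.90 ± 0.12, limma adjusted p = 2.83e-05) and 1.08 ± 0.12 at day 60. Dio1, the hepatic thyroid hormone deiodinase, fell from 53.9, 53.6 and 48.9 to 38.2, 31.9 and 22.5 FPKM (-0.77 ± 0.13, limma adjusted p = 0.000318) and by a similar amount at day 60 (-0.72 ± 0.13).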
